A study of Mus musculus with 2 samples.

Results

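The genes examined here encode receptors for extracellular nucleotides and adenosine, and enzymes that break these molecules down. An exception is Dpp4, which encodes a peptidase and is counted among the enzymes. The genes were chosen by name, with earlier results of these data known. The receptors were P2rx7, P2rx4, P2ry14, Adora2a and Adora2b, and the enzymes Entpd1, Nt5e, Cd38, Dpp4 and Ada. Probe sets annotated to exactly 1 of these 10 symbols were taken, which gave 19 of the 34945 probe sets with a single gene and 7 of the 18193 genes. Adora2a, Adora2b and Cd38 had no probe set listed for them alone and have no value here.

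The study profiled liver natural killer (NK) cells of wild-type B6 mice, which were naive, on Affymetrix arrays. NK cells belong to the innate lymphocytes; they kill infected or transformed cells and release cytokines. Both groups were NK1.1+ CD3- cells sorted by flow cytometry, and they differed in binding of DX5, an antibody to the integrin chain encoded by Itga2: 1 array held RNA of DX5-NK1.1+CD3- cells and 1 array RNA of DX5+NK1.1+CD3- cells. Neither group had a replicate, so n = 1 for every value, no difference was tested, and all folds describe these arrays only. The sources used here give neither the age, the sex nor the number of the mice.

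ATP released by activated, stressed or dying cells acts on P2X receptors, which are ion channels opened by ATP, while P2Y receptors are coupled to G proteins and respond to various nucleotides or nucleotide sugars. Ectoenzymes on the cell surface convert ATP in steps to adenosine, which acts on its own receptors, raises cyclic AMP in lymphocytes and restrains killing and cytokine release. In mouse T cells P2rx7 can also be switched on through NAD, when a surface ADP-ribosyltransferase modifies the channel, and Cd38 lowers NAD by hydrolysing it.

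The receptors P2rx7 and P2ry14 were the members 2-fold or more apart, and they lay on opposite sides. RefSeq lists 14 promoter windows for 9 of the 10 genes (assembly GRCm38.p6; Adora2a was not matched), each running from 250 bases before to 50 bases after a start site. Of 7 motifs searched on both strands, 1 was found in any of them: the AP-1 motif TGANTCA, which reads the same on both strands and is held by 7.81% of all 32851 windows. The 3 windows that hold it belong to the pair of genes past 2-fold, 1 of the 2 windows of P2rx7 and 2 of the 4 of P2ry14, and are shown because they belong to the chosen genes past 2-fold. The matched letters are in capitals, and all windows are written 5′ to 3′ on the strand of the gene.
P2rx7, chr5:122643677-122643976, plus strand: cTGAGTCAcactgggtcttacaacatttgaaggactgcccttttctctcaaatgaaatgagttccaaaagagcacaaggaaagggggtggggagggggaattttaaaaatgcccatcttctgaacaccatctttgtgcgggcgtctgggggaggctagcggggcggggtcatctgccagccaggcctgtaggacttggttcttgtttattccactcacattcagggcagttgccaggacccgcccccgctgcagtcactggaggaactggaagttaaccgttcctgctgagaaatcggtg
P2ry14, chr3:59153443-59153742, minus strand: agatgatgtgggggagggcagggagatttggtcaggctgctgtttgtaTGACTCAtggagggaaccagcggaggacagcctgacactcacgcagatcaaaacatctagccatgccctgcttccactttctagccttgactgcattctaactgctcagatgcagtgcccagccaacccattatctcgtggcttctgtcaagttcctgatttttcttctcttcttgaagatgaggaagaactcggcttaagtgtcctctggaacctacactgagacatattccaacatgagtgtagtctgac
P2ry14, chr3:59131279-59131578, minus strand: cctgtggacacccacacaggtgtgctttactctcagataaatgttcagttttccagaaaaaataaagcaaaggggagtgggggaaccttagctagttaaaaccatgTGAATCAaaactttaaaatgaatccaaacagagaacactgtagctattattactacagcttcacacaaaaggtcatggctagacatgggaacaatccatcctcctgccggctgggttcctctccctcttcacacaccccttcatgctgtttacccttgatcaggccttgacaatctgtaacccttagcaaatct
The P2rx7 match began 249 bases before the start site and read TGAGTCA. The P2ry14 matches began 202 and 144 bases before their start sites and read TGACTCA and TGAATCA. A match describes the letters of the window and says nothing about binding in these cells. The other motifs searched were a T-box site (AGGTGTGA, in 1.28% of all windows), CRE (TGACGTCA, 1.79%), a wider CRE (TGACGTNA, 2.93%, which includes every CRE match), RUNX (TGTGGTT, 5.27%), ETS (CCGGAAGT, 3.89%) and NF-kappaB (0.411%).

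The windows also differed in CpG content. The median over all RefSeq windows was 7 CpG dinucleotides per window. The 2 P2rx7 windows held 8 and 4, and the 4 P2ry14 windows held between 1 and 4. Among the enzymes the Nt5e window held 23, the Ada window 20 and the Entpd1 windows 23 and 10, whereas the Dpp4 window held 4 and the Cd38 window 1. The windows of P2rx4 and Adora2b held 18 and 27.

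The values are linear MAS5 intensities, and the log2 ratio is DX5- minus DX5+ throughout. Each array had a detection limit, the 95th percentile over 154 probe sets of families hardly expected in liver or lymphocytes (such as olfactory receptors, crystallins and opsins); it was 98.4 (DX5- array) and 107 (DX5+ array). Of 18193 genes, 8772 were above both limits, 530 above that of the DX5- array alone and 559 above that of the DX5+ array alone. Of these 9861 detected genes 885 (8.97%) were 2-fold or more apart, 356 higher and 529 lower in DX5- cells. Centring each array on its median turned this split to 507 higher and 385 lower, and scaling to the spike-in controls to 643 and 341; these scalings moved the median log2 ratio of all genes from -0.013 to 0.13 and 0.21. The 10 general NK cell markers were all above both limits and 9 were within 2-fold. The other was Prf1, which read 3108 in the DX5- and 8978 in the DX5+ population, 2.89-fold lower in DX5- cells. Markers shared by both populations cannot show which array is DX5- and which is DX5+. Itga2 itself read 29.0 (DX5- array) and 105 (DX5+ array), below the limit on both. Without the Crybg genes, which are not lens crystallins, the limits were 76.0 (DX5- array) and 82.2 (DX5+ array). At those limits the Itga2 reading was above the limit on the DX5+ array alone. Between probe sets of the same gene the log2 ratio had an SD of 0.32 (4049 genes), or 0.38 among the dimmest 1013 genes and 0.24 among the brightest 1012; this covers probe noise only. Hepatocyte markers (4 of 7 with a probe set detected, 1 lower by 2-fold or more, Ttr at 2.22-fold) had a summed intensity of 1367 (DX5- array) and 2124 (DX5+ array).

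Of the 10 members, 6 genes were detected, 1 was higher by 2-fold or more in DX5- cells and 1 lower by 2-fold or more. Over all detected genes 3.61% were higher by 2-fold or more and 5.36% lower by 2-fold or more. Both members past 2-fold were also past 4-fold, against 1.50% of all genes (0.639% higher and 0.862% lower). The median log2 ratio of the 6 genes was 0.17, beside -0.013 over all detected genes. At the level of probe sets, 13 of the 19 were above a limit, 2 of them higher by 2-fold or more and 1 lower by 2-fold or more, against 3.37% and 4.98% of all detected probe sets (8.35% together). Members that pass a limit are not all members. The members were also chosen with earlier results of these data known. These counts are therefore descriptions and no independent support for a difference in the family.

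**Figure D1:**
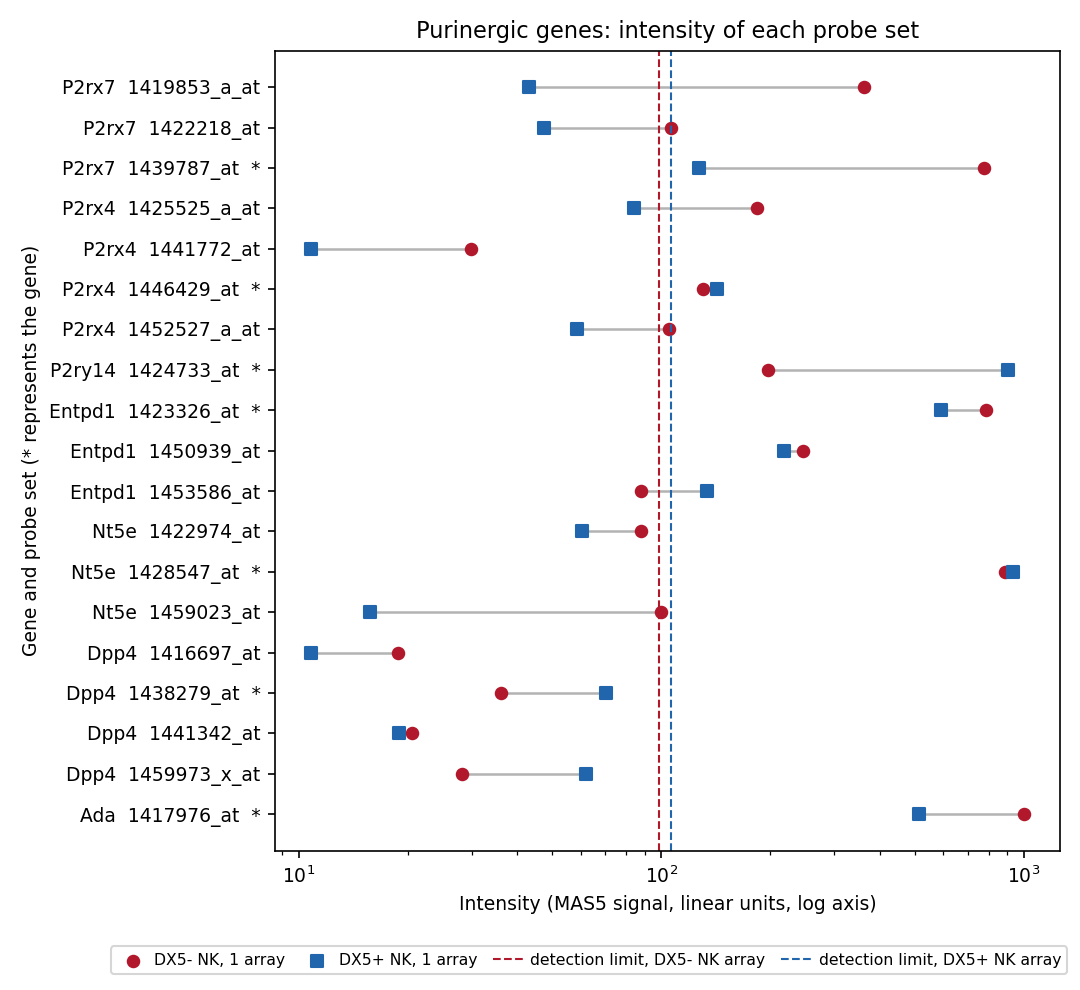
Intensity of each probe set of the purinergic genes on a log axis, with 1 array for DX5- NK cells (circles) and 1 for DX5+ NK cells (squares); dashed lines mark the detection limits of 98.4 and 107, and an asterisk marks the probe set that represents the gene. All 3 P2rx7 probe sets lie higher in DX5- cells, the P2ry14 probe set lies higher in DX5+ cells, and all 4 Dpp4 probe sets lie below the limits.

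P2rx7 encodes the ATP-gated channel that opens at high ATP, lets cations flow and, on sustained opening, triggers membrane blebbing, shedding of surface proteins and cell death. Its brightest probe set, 1439787_at, read 776 in the DX5- and 127 in the DX5+ population, a 6.10-fold difference (log2 ratio 2.61). Only 26 of the 9861 detected genes, P2rx7 included, had a ratio at least as high in that direction, or 0.264%. The ratio was larger than the SD of 0.38 between probe sets of genes of like brightness. The DX5+ value of 127 lay close to its limit of 107. With a stricter limit at the 99th percentile (157 on the DX5+ array) it fell below, and the log2 ratio became at least 2.31.

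The other P2rx7 probe sets leaned the same way at lower intensity. Probe set 1419853_a_at read 364 in DX5- cells against 43.3 in DX5+ cells, where it was below the limit, which makes it at least 3.41-fold higher. Probe set 1422218_at read 106 and 47.6. Its DX5- value was above the limit of its own array and below that of the other, so no fold is given. All 3 probe sets were thus higher in DX5- cells, with the size resting on 1 probe set measured above the limit on both arrays. With the mean over the 3 probe sets the DX5+ value fell below the limit and the log2 ratio was 1.54 as a lower bound.

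P2rx7 stood on the same side as the markers of type 1 innate lymphoid cells and resident liver NK cells. All 5 were higher by 2-fold or more in DX5- cells, beside 3.61% of all detected genes (median log2 ratio 2.95). Cxcr6, Itga1 and Il21r led, at 9.62-fold, at least 9.37-fold and 7.73-fold. Summed over the 5 markers, the intensity was 17492 (DX5- array) and 2061 (DX5+ array). The marker lists were chosen with earlier results of these data known, so their direction is no independent support. T cells also carry P2rx7, and of 8 T cell markers 5 were higher by 2-fold or more and 0 lower by 2-fold or more, led by Cd3g (13.1-fold), Camk4 (4.73-fold) and Bcl11b (4.66-fold), with sums of 26969 and 11003. No T cell marker was listed at 0, and Cd28 read 7668 and 8442. Of 7 B cell markers with a probe set 6 were detected and 0 passed 2-fold, with 1 of them, Pax5, known only as a lower bound (sums 1697 and 1332). Both populations were sorted as CD3-, a gate that removes T cells with CD3 on their surface. The part of T cells or of cell mixture in the P2rx7 ratio was not tested. In sorted bulk RNA, fewer cells of a type and less RNA per cell cannot be told apart.

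P2rx4 encodes an ATP-gated channel that opens at lower ATP than P2rx7 and cycles through endosomes and lysosomes. Its gene is the next protein-coding gene after P2rx7 on chromosome 5. The brightest of its 4 probe sets, 1446429_at, read 130.5 in the DX5- and 142 in the DX5+ population, a log2 ratio of -0.12 that lay within the probe noise and turned to between 0.0013 and 0.11 when the arrays were centred or scaled in other ways. The other 3 probe sets were higher in DX5- cells. Probe set 1425525_a_at read 184 and 84.1, at least 1.73-fold higher. Probe sets 1452527_a_at (105 and 58.4) and 1441772_at (29.9 and 10.8) gave no fold, since neither was clear of the limits. All P2rx4 readings were dim, and their direction depended on the probe set, so no direction is given for the gene.

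P2ry14 encodes a receptor coupled to inhibitory G proteins that responds to UDP-glucose and related UDP-sugars, which cells release under stress. Its 1 probe set, 1424733_at, read 197.5 in the DX5- and 904 in the DX5+ population, 4.58-fold lower in DX5- cells (log2 ratio -2.19). Of 9861 detected genes 57 had a ratio at least as low, or 0.578%. Both readings were above the limits, but no other probe set was there to set beside it. With a stricter limit, at the 99th percentile, the DX5- value fell below it, and the difference became at least 1.51 on the log2 scale.

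Markers of several other cells lay on the same side as P2ry14, on lists that were also chosen with earlier results of these data known. Over all detected genes 5.36% were lower by 2-fold or more in DX5- cells. Of 7 circulating NK markers with a probe set, 6 were lower by 2-fold or more in DX5- cells, led by S1pr5 (at least 15.6-fold), Cma1 (13.6-fold) and Eomes (8.09-fold), with summed intensities of 3570 and 31560 on the DX5- and DX5+ arrays. Platelet markers were lower by 2-fold or more for 7 of 7 with a probe set, led by Clec1b (8.26-fold), Ppbp (7.45-fold) and Gp1bb (at least 5.73-fold), with sums of 1152 and 5883. Of 12 macrophage and Kupffer cell markers 5 were detected and 4 were lower by 2-fold or more, led by Lyz1 (6.40-fold), Mpeg1 (4.25-fold) and Lyz2 (3.44-fold), with sums of 1373 and 5833. The Kupffer cell markers Clec4f, Timd4, Cd163 and Marco and the complement genes C1qa, C1qb and C1qc were below both limits, and none was listed at 0. Of 7 neutrophil markers with a probe set 3 were lower by 2-fold or more (Ngp 2.94-fold, S100a9 2.90-fold, S100a8 2.51-fold; sums 3801 and 9605). The part of these cells in the P2ry14 ratio was not tested.

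The other genes of the P2Y cluster on chromosome 3 and the receptors by which platelets sense ADP were not detected. P2ry13, the second protein-coding gene after P2ry14, read 55.9 and 56.4. P2ry12, the platelet ADP receptor, read 28.2 and 59.7, and P2ry1, the other platelet ADP receptor, 2.0 and 4.1. All 3 were below both limits, each on 1 probe set. Platelet markers with a probe set were above the limit on the DX5+ array, and the part of platelets in the P2ry14 ratio was not tested. Gpr171, next to P2ry14 on its other side, read 4637 and 6601, a 1.42-fold difference toward DX5+ cells, much smaller than that of P2ry14.

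**Figure D2:**
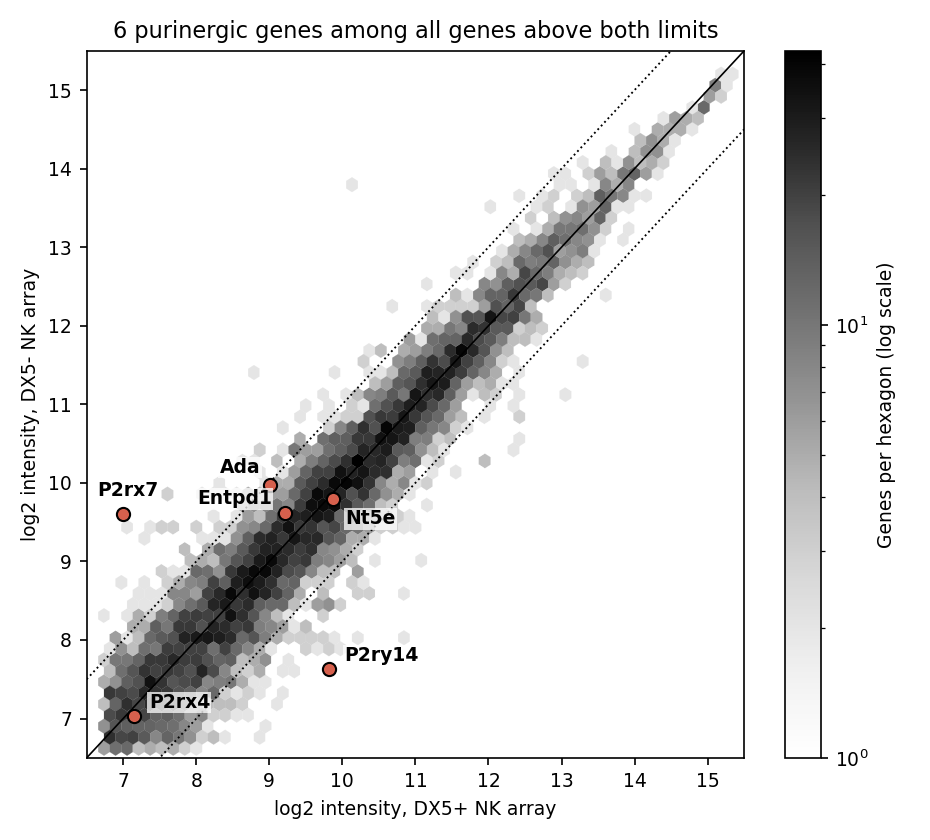
log2 intensity of the 8772 genes above both limits, DX5+ NK array on the horizontal axis and DX5- NK array on the vertical axis, as hexagons shaded by gene number, with the 6 detected purinergic genes in red; the solid line marks equal values and dotted lines mark 2-fold. P2rx7 lies above the upper dotted line, P2ry14 below the lower one, Ada just inside the upper one at 1.95-fold, and Entpd1, Nt5e and P2rx4 near the line of equal values.

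The detected enzymes all lay within 2-fold, as did most genes, since 8.97% of all detected genes were 2-fold or more apart. Of 5 enzymes 3 were detected and 0 were 2-fold or more apart, with a median log2 ratio of 0.41. Ada lay just under 2-fold and crossed it under other scalings, as given below. Among the 3 detected receptors 1 was higher, 1 lower and 1 within 2-fold. The difference between enzymes and receptors was not tested.

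Entpd1 encodes CD39, the ectoenzyme that takes ATP and ADP to AMP and so removes the ligand of P2rx7. Its brightest probe set, 1423326_at, read 788 in the DX5- and 592 in the DX5+ population, 1.33-fold higher (log2 ratio 0.41), close to the spread between probe sets. Probe set 1450939_at read 245 and 219, 1.12-fold higher. Probe set 1453586_at went the other way, with 87.7 (below the limit) on the DX5- array against 133.5 on the DX5+ array. The mean over the 3 probe sets gave a log2 ratio of -0.0093, so no direction held for Entpd1. Endothelial cells and dendritic cells also carry CD39. Of 8 endothelial markers 4 were detected and 0 passed 2-fold, with 1 of them, Stab2, known only as a lower bound (sums 1342 and 1422), and of 6 dendritic cell markers with a probe set 5 were detected and 1, Siglech, was lower by 2-fold or more (3.39-fold; sums 6496 and 5365).

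Nt5e encodes CD73, which makes adenosine from AMP. Probe set 1428547_at read 885 in the DX5- and 934 in the DX5+ population, a 1.06-fold difference that lay within the probe noise. Both populations thus gave readings well above the limit and close to each other. The remaining probe sets were dim. Probe set 1422974_at read 88.1 and 60.6, below both limits, and 1459023_at read just above the limit in DX5- cells and 15.7 in DX5+ cells. They pulled the mean over probe sets to a log2 ratio of 0.90, a value that rests on readings at or under the limits.

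Ada encodes adenosine deaminase, which turns adenosine into inosine inside and outside cells and so ends adenosine signalling. Its 1 probe set, 1417976_at, read 1002 in the DX5- and 513.5 in the DX5+ population, 1.95-fold higher (log2 ratio 0.96). Of all detected genes 3.85% had a ratio at least as high. Ada lay just under the 2-fold threshold and crossed it with median centring (1.11) and spike-in scaling (1.19). The ratio was above the SD of 0.31 between probe sets of genes of like brightness, but no other Ada probe set was there to compare.

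Dpp4 encodes CD26, a surface peptidase that trims chemokines and, in humans, holds adenosine deaminase at the cell surface. Its 4 probe sets read between 18.8 and 36.1 in DX5- cells and between 10.8 and 70.2 in DX5+ cells. All were below the limits, with 2 higher and 2 lower in DX5- cells, so Dpp4 was not detectable on either array and has no fold.

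The wider pathway was described with 9 lists of 112 further genes, of which 100 had a probe set and 61 were detected. Of these 61 genes 4 were higher by 2-fold or more in DX5- cells and 4 lower by 2-fold or more, together 13.1% apart beside 8.97% of all genes. The other 53 did not pass 2-fold, 48 of them above both limits and 5 known only as lower bounds. The median log2 ratio of all 61 was 0.043. Most detected genes did not pass 2-fold in the wider pathway, as over the whole array. Of the 4 higher genes 3 were surface or secretory enzymes.

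Receptors outside the chosen genes were mostly not detected. Of the 5 other P2X channels 0 were above a limit, with P2rx1 closest at 78.3 and 98.8. The 1 other adenosine receptor with a probe set, Adora3, read 35.6 and 61.1, below both limits. Of 7 other P2Y genes 1 was detected, P2ry10, a lymphocyte receptor for lysophosphatidylserine that carries a P2Y name; it read 18499 in the DX5- and 13525 in the DX5+ population, 1.37-fold higher. At the limits used here, P2rx7, P2rx4 and P2ry14 were the detected nucleotide receptors among those with a probe set, P2ry10 set aside. This roster depended on the limit. Without the Crybg genes, which are not lens crystallins, the limits were 76.0 (DX5- array) and 82.2 (DX5+ array), and P2rx1 lay above both. With the limit at the 99th percentile P2rx4 fell below both.

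Among other nucleotide enzymes of the surface and secretory pathway, 18 of 24 had a probe set and 7 were detected, with 1 of them, Entpd7, known only as a lower bound. In DX5- cells 3 were higher by 2-fold or more and 0 were lower by 2-fold or more, beside 3.61% and 5.36% of all genes. The median log2 ratio was 0.39, beside -0.013 over all detected genes, and ran from 0.20 to 0.73 over the processing settings. Acpp encodes a transmembrane acid phosphatase that, like CD73, takes AMP to adenosine. Its brightest probe set read 1975 in the DX5- and 256 in the DX5+ population, 7.73-fold higher. The other Acpp probe sets read 1672 against 256 (6.52-fold) and 1007 against 96.6 (at least 9.45-fold), so all 3 gave a high reading in DX5- cells and a low one in DX5+ cells. Acpp thus differed by a larger fold than any of the 6 detected genes chosen by name, while Nt5e, which also serves this step, read alike.

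Entpd5, a nucleoside diphosphatase that acts on UDP in the endoplasmic reticulum during protein glycosylation, read 478 in the DX5- and 195 in the DX5+ population, 2.45-fold higher. All 6 of its probe sets were higher in DX5- cells, and the 4 above both limits ranged from 2.21 to 2.45-fold. Enpp5, of the family of nucleotide pyrophosphatases, read 407 and 125 on 1 probe set, 3.25-fold higher. Entpd6, Enpp4 and Cant1 were detected on both arrays and within 2-fold. Bst1, the neighbour and relative of Cd38, read 1.6 and 44.9, below both limits.

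**Figure D3:**
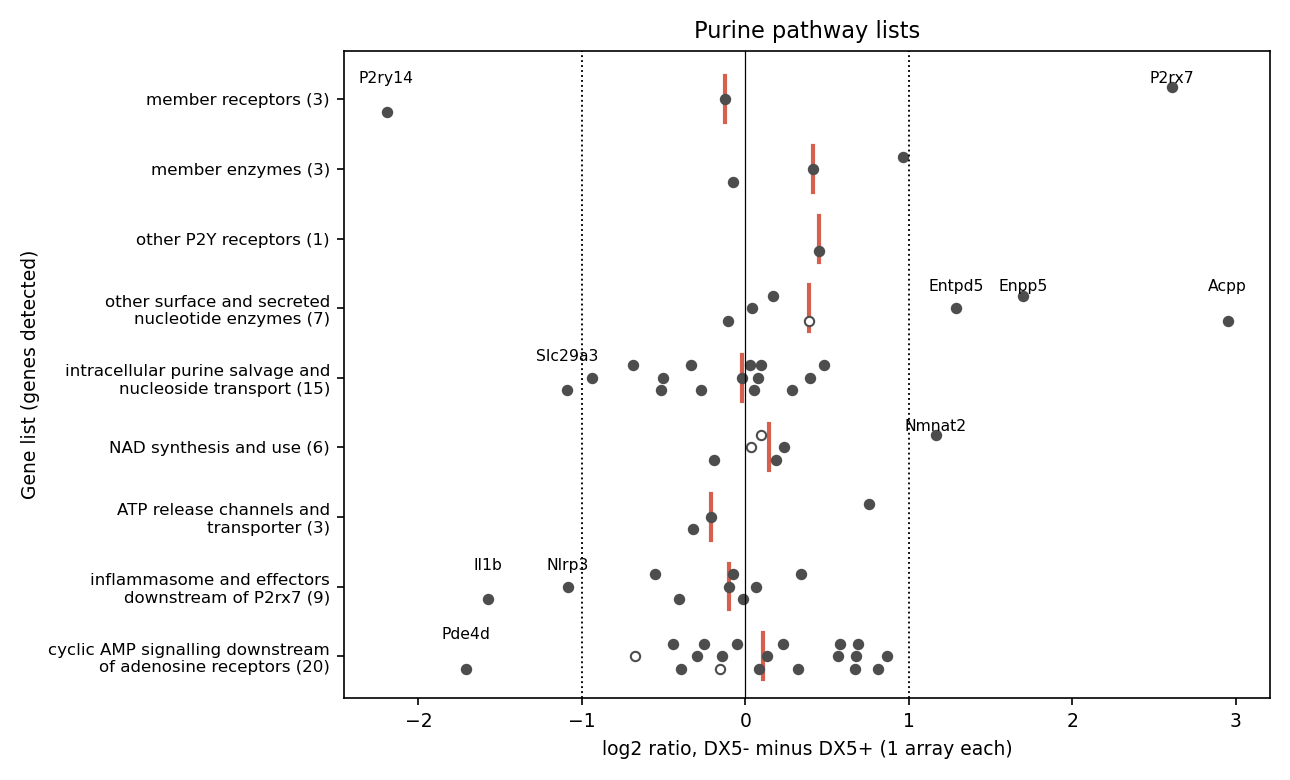
log2 ratio, DX5- minus DX5+ with 1 array each, of every detected gene in the chosen receptors and enzymes and in the pathway lists; filled points are above both limits, open points are bounds, red bars are list medians, dotted lines mark 2-fold, and genes past 2-fold are named. Acpp and P2rx7 lie farthest toward DX5- cells, at 2.95 and 2.61, and P2ry14 farthest toward DX5+ cells, at -2.19.

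Few genes of the intracellular steps were 2-fold or more apart, as over all detected genes, where the share was 8.97%. Of 21 purine salvage and nucleoside transport genes with a probe set, 15 were detected, 0 were higher by 2-fold or more and 1 was lower by 2-fold or more, with a median log2 ratio of -0.023. The gene past 2-fold was Slc29a3, a nucleoside transporter of lysosomes, which read 258 in the DX5- and 550 in the DX5+ population (2.13-fold); its other probe set was below both limits. Of 8 NAD genes 6 were detected with a median of 0.14, and Nmnat2, which makes NAD from its mononucleotide, was higher at 429 against 192 (2.24-fold). Of 7 genes for ATP release 3 were detected, all within 2-fold (median -0.21); Panx1, the channel through which lymphocytes release ATP, read 1403 and 1621.

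The inflammasome is the complex that P2rx7 can engage in myeloid cells. Of its 10 genes and effectors 9 were detected, 0 were higher by 2-fold or more and 2 lower by 2-fold or more in DX5- cells, beside 3.61% and 5.36% of all genes. Their median log2 ratio was -0.10, and it turned to 0.048 with median centring and to 0.13 with spike-in scaling. Il1b, the cytokine processed by the inflammasome, read 234 in the DX5- and 698 in the DX5+ population, 2.98-fold lower. Nlrp3, its sensor, read 146 and 311, 2.12-fold lower. Both are abundant in myeloid cells, and the neutrophil and macrophage markers given above were lower on the same array; their part was not tested. P2rx7 was thus higher on the array where Nlrp3 and Il1b were lower. Casp1 (767 and 823), Pycard (2463 and 3606) and Gsdmd (707 and 559) were within 2-fold.

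Downstream of adenosine receptors, 20 of 23 cyclic AMP genes with a probe set were detected, with a median log2 ratio of 0.11. In DX5- cells 0 were higher by 2-fold or more and 1 was lower by 2-fold or more, beside 3.61% and 5.36% of all genes. The gene past 2-fold was Pde4d, a phosphodiesterase that breaks down cyclic AMP, which read 407 in the DX5- and 1329 in the DX5+ population, 3.27-fold lower; its other probe set was below both limits.

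The chromosomal neighbours of the chosen genes were examined for ratios that extended beyond them. The 2 nearest protein-coding genes on each side gave 38 distinct genes, among them P2rx7 and P2rx4 as neighbours of each other. Of these, 22 were detected, 1 was higher by 2-fold or more and 0 were lower by 2-fold or more. Over all detected genes 3.61% were higher and 5.36% lower by 2-fold or more. The neighbour past 2-fold was P2rx7 itself, a chosen gene. With so few genes the count says little about ratios beyond the chosen genes. Around P2rx7, Atp2a2 read 2358 and 2777 and Camkk2 325 and 425, both slightly toward DX5+ cells, while Ift81 was below both limits. P2rx4, the nearest gene, has no settled direction, as described above.

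**Figure D4:**
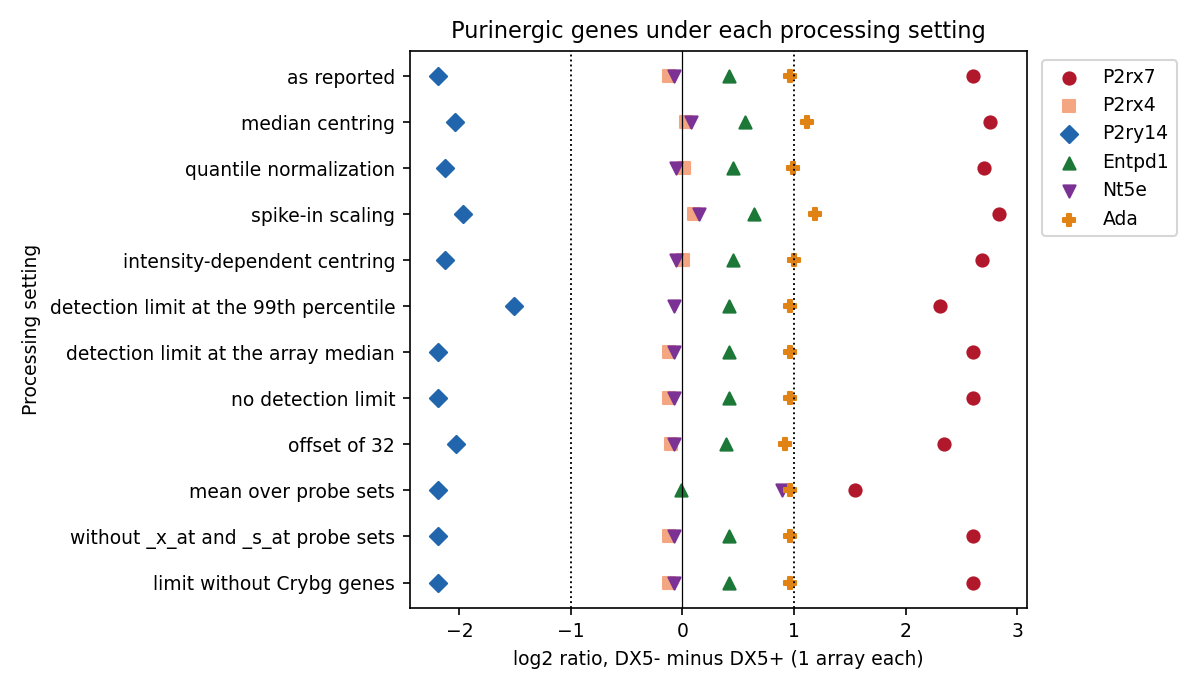
log2 ratio, DX5- minus DX5+ with 1 array each, of the 6 detected purinergic genes as reported and under 11 other processing settings; dotted lines mark 2-fold and a missing point means that the gene was below both limits. P2rx7 stays between 1.54 and 2.84 and P2ry14 between -2.19 and -1.51. Here 1.54 and -1.51 are bounds, the difference being at least that large, and bounds are not marked apart from other points. Ada lies between 0.92 and 1.19 around the 2-fold line, and P2rx4 lies on both sides of 0.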

How the data were processed

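Total RNA of each sorted population was labelled with biotin and hybridised to an Affymetrix mouse array. The deposited table holds 1 linear intensity per probe set and array (45101 probe sets), made by the authors with MAS5, per the submitters' processing notes; the sources used here give no version or settings. MAS5 combines the probes of a set into 1 signal and scales each array by 1 factor; the mean without the lowest and highest 2% was 499.8 on both arrays. Detection calls were not used here, so no precision can be given for a single intensity, and having 1 array a group limits the comparison.

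Probe sets were named from the platform annotation (34945 with 1 gene, 34741 of them matched to RefSeq by gene identifier; 932 with several genes were not used). Intensities were taken to log2 with no offset. The probe set brightest on average (log2) stood for its gene. A value below its array's limit was set to the limit, so the fold is a lower bound; genes below both limits were left out. With 1 array a group no test was made, and called means past 2-fold. Named genes were every chosen gene, up to 4 genes past 2-fold per pathway list, up to 3 per cell type list, and neighbours; others were chosen after their values were seen. The members and lists were chosen with earlier results of these data known. Sequences come from RefSeq. Alternatives changed scaling, limit, offset (32) and probe set. Python 3.11.15, pandas 2.3.3, numpy 2.4.6 and statsmodels 0.14.6 were used.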

Additional observations from a re-analysis of the deposited data

How the results depend on the processing

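With 1 array a group no replicate could be left out. No paired analysis was possible because each group has a single array. P2rx7 stayed at least 2-fold higher and P2ry14 at least 2-fold lower in DX5- cells under all 11 alternatives. Of these, 1 (the limit without the Crybg genes, which are not lens crystallins) was chosen after seeing the data. A lower limit, no limit, and leaving out _x_at and _s_at probe sets could not move these ratios, since the probe sets and their intensities stayed the same. For P2ry14, with 1 probe set, the mean over probe sets could not either. With the mean over probe sets the log2 ratio was -0.0093 for Entpd1, at least 1.54 for P2rx7 and at least 0.90 for Nt5e. Dim probe sets then count as much as bright ones, and P2rx4 was below both limits. A 99th-percentile limit (317 and 157) left only bounds for P2rx7 (log2 ratio 2.31) and P2ry14 (-1.51), and put P2rx4 below both limits. The median of the other surface and secreted nucleotide enzymes was then 0.73, and 276 of all genes were at least 2-fold lower against 309 higher. Ada made the count of members at least 2-fold higher 2 with median centring and 2 with spike-in scaling. Over all genes, spike-in scaling gave 643 higher and 341 lower; with no limit 18193 genes were counted, 1888 higher and 2838 lower, and Dpp4 entered at -0.96. Of the values recomputed, 304 moved by less than 0.32 (log2) or 1.5 times (counts) and 22 by more. The 304 include values that a setting could not change, and values that became missing are not counted. Values near the limits, those of P2rx4, Dpp4 and the dim probe sets of Nt5e, Entpd1 and P2rx7, are where signal over background limits what can be read.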

Other observations

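Within the list of cyclic AMP genes, readings under the 2-fold threshold were also looked at, a choice made after their values were seen. Of the 20 detected genes 8 had a log2 ratio above 0.32, the spread between probe sets of a gene, and 4 had one below -0.32, beside 22.0% above and 25.6% below over all genes. Adcy7, an adenylyl cyclase of blood cells, read 3035 in the DX5- and 1666 in the DX5+ population (1.82-fold). Creb1, a transcription factor activated by cyclic AMP, read 1359 and 774 (1.76-fold), and Crem, a related factor, 16817 and 10440 (1.61-fold). The catalytic subunits of protein kinase A, Prkaca (1415 and 886) and Prkacb (2129 and 1423), lay on the same side, as did the phosphodiesterases Pde3b (8311 and 5228) and Pde4b (10514 and 7112). The genes below -0.32 were Pde4d, given above, Prkar2b, a regulatory subunit of protein kinase A (24.9 and 157, at least 1.59-fold lower), the phosphodiesterase Pde8a (1110 and 1511) and Gnai3, an inhibitory G protein subunit (7879 and 10346). Apart from Pde4d, and Prkar2b with only a lower bound, none of these genes reached 2-fold, and no test was possible with 1 array a group.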
